A study of Rattus norvegicus with 111 samples.

Results

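Fetal liver from rat dams dosed with 1 mg/kg/d PFO5DoA was compared with fetal liver from vehicle dams. The comparison rested on 3 dosed and 5 control libraries, each from another dam, out of 111 libraries in the whole series. All dams were Sprague-Dawley rats of the Crl:CD(SD) stock, bought pregnant at about 11 to 12 weeks of age, and both groups were dosed by mouth from gestational day 18 to 22, the dosed dams with PFO5DoA and the controls with 0.5% Tween-80 alone. Livers were taken within hours of the last dose. The tables name each library by its dam and its well, and the dam number gives the dose through the labels. They do not say which of a dam's 2 libraries is maternal and which is fetal. Dam 2286, dosed with 30 mg/kg/d PFO5DoA, gave a single library, which is labelled maternal. Each library's life stage was chosen by its measured values: of a dam's 2 libraries, the one closer to the dam 2286 library was taken as maternal and the other as fetal. The difference between the life stages was therefore not tested. The labels tie each fetal library to a dam and do not say how many fetuses it holds, so the dam is the replicate throughout.

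PFO5DoA is a perfluoroalkyl ether carboxylic acid, a chain of fluorinated carbons broken by ether oxygens and ending in an acid group. PFO4DA, the other chemical of the series, is the next shorter homologue. As background, many perfluoroalkyl acids bind PPAR alpha in rodents, a nuclear receptor of the liver that switches on genes of fatty acid oxidation and ketone body formation. Late fetal rat liver still forms blood cells beside its hepatocytes and prepares for the change from placental glucose to milk fat. The deposited tables name genes by Ensembl ID alone, and 0 of the 20311 IDs were paired with a symbol in the tables used here. No role can therefore be given to a gene below, the label fetal liver could not be checked against marker genes, and no pathway list could be counted.

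The 8 fetal libraries correlated with the dam 2286 library at Pearson's r 0.872 to 0.901, and their 8 maternal partners at 0.943 to 0.979, on log2(CPM + 1) over all genes. The smallest gap between a dam's 2 libraries was 0.0567. Across both tables the fetal libraries lay at 0.861 to 0.923 and the maternal ones at 0.943 to 0.988 (54 each), with no overlap, and Spearman's rho changed 0 of the 111 assignments. The order within each dam was set by the rule, and rho used the same values. These figures are therefore no independent check of the life stage. Total counts were 12020844 to 12706068 in the dosed libraries and 9694608 to 11809874 in the controls, so every dosed library was deeper than every control (exact permutation test, two-sided, p = 0.0357 over 56 splits, of which 0.0179 is the smallest possible). Genes detected numbered 14038 to 14771 in the dosed libraries and 13720 to 14676 in the controls (exact permutation test, two-sided, p = 0.5). The controls of dams 2278 and 2280 stood apart on the first principal component, which held 45.8% of the variance: they scored 61.4 and 39.7, against -28.7 to -22.3 in the dosed libraries and -30.4 to 22.1 in the other 3 controls. Those 2 dams belong to an upper run of dam numbers that holds no dam at 1 mg/kg/d. The labels name no such run, and the cut, which starts the upper run at dam 2278, was set here. The dam 2278 library also held 5 genes at over 10 times the level of any other of the 8 libraries, where each of the others held 0.

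In fetal liver at 1 mg/kg/d PFO5DoA, 116 genes rose and 21 fell. These are 1.07% and 0.194% of the 10809 genes tested, and both directions together made 137 genes or 1.27% (edgeR quasi-likelihood test, Benjamini-Hochberg adjusted p under 0.05). An unadjusted p under 0.05 was reached by 1542 genes. The rises had a median log2 fold change of 1.73 (quartiles 1.26 and 2.56, range 0.72 to 5.89). The falls had a median log2 fold change of -1.25 (quartiles -2.03 and -0.95, range -3.78 to -0.79). The median of all genes tested was -0.02.

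Most rises were more than a doubling. At least a 2-fold rise was seen in 103 genes (0.953% of those tested), at least 4-fold in 45 (0.416%) and at least 8-fold in 18 (0.167%). Among the falls these numbers were 15 (0.139%), 6 (0.0555%) and 1 (0.00925%). The dosed libraries all lay above the controls in 115 of the 116 rises and all below them in 21 of the 21 falls. In 6.62% of all genes tested the dosed libraries all lay above the controls, and in 4.36% all below. Since the rises and falls were called in these same libraries, their separation was largely set by that choice. Genes nearest to the threshold had adjusted p-values (edgeR) of 0.0471 to 0.0498 inside it and 0.052 to 0.0531 outside it.

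The genes that rose had control means at low and at high levels of expression. Their median level, in CPM (counts scaled to a common library total, adjusted by TMM), was 69.6 in dosed and 19.3 in control livers, where the median control level of all genes tested was 12 CPM. The control mean was under 1 CPM in 13 of them, 1 to 10 CPM in 35, 10 to 100 CPM in 44, 100 to 1000 CPM in 21 and at least 1000 CPM in 3. Of all genes tested, 388, 4549, 4815, 957 and 100 lay at these levels, so the rises held a smaller share at 1 to 10 CPM. Of the rises, 11 passed the filter on low counts through the dosed libraries alone, so those 11 could only have risen. The genes that fell had a median level of 20.3 CPM in dosed and 57.4 CPM in control livers, and 3 of the 21 passed the filter through the controls alone. As these are bulk samples, fewer cells of a type and less RNA per cell cannot be told apart.

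ENSRNOG00000055221 rose the most. Its level was 368, 599 and 590 CPM in the 3 dosed libraries, against 6.69, 15, 6.49, 9.66 and 5.64 CPM in the 5 controls. The lowest dosed library was thus far above the highest control. In the dosed libraries of dams 2271 and 2272 its deposited value was not a whole number, so some of its reads may be shared with another gene. The means were 519 ± 131 CPM at 1 mg/kg/d (SD, n = 3) and 8.70 ± 3.84 CPM at 0 mg/kg/d (SD, n = 5), a log2 fold change of 5.89 ± 0.34 (SE), or 59.2-fold (edgeR adjusted p = 2.28e-05).

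ENSRNOG00000064738 was nearly silent in the 5 PFO5DoA controls. In the 6 fetal controls of PFO4DA it averaged 0.947 CPM and ranged from 0 to 2.1 CPM. Under PFO5DoA it had 2.59, 8.64 and 6.49 CPM at 1 mg/kg/d, against 0, 0, 0.399, 0 and 0.182 CPM at 0 mg/kg/d, where the 5 controls held 6 counts in all. It is 1 of the 11 rises that passed the filter through the dosed libraries alone, so that its groups had to differ. The means were 5.91 ± 3.07 CPM at 1 mg/kg/d (SD, n = 3) and 0.116 ± 0.177 CPM at 0 mg/kg/d (SD, n = 5). The log2 fold change was 5.56 ± 0.71 (SE; edgeR adjusted p = 0.00307), and with so few control counts its size moved to 4.35 in limma and to 6.67 without the control of dam 2265. Its deposited values were not whole numbers, so its reads may be shared with another gene and its identity is uncertain.

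ENSRNOG00000069588 led the falls that met the rule for examples. It had 6.48, 4.32 and 4.16 CPM at 1 mg/kg/d, against 20.3, 19.3, 31.6, 22.9 and 20.5 CPM at 0 mg/kg/d. The groups did not overlap, with means of 4.99 ± 1.30 CPM (SD, n = 3) and 22.9 ± 5.04 CPM (SD, n = 5). The 6 fetal controls of PFO4DA spread more widely, from 3.06 to 32.8 CPM. Of these, dams 2293 (3.69 CPM) and 2308 (3.06 CPM) lay below all 3 dosed PFO5DoA libraries. The log2 fold change was -2.21 ± 0.24 (SE; edgeR adjusted p = 0.00105), a level 4.62-fold lower.

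ENSRNOG00000004009 was the second of these falls. Its dosed libraries held 28.9, 16.7 and 21.5 CPM, against 113, 79.1, 144, 72.6 and 80.4 CPM in the controls. The means were 22.4 ± 6.14 CPM at 1 mg/kg/d (SD, n = 3) and 97.9 ± 30.4 CPM at 0 mg/kg/d (SD, n = 5), and the groups did not overlap. The log2 fold change was -2.14 ± 0.28 (SE; edgeR adjusted p = 0.00366).

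**Figure D1:**
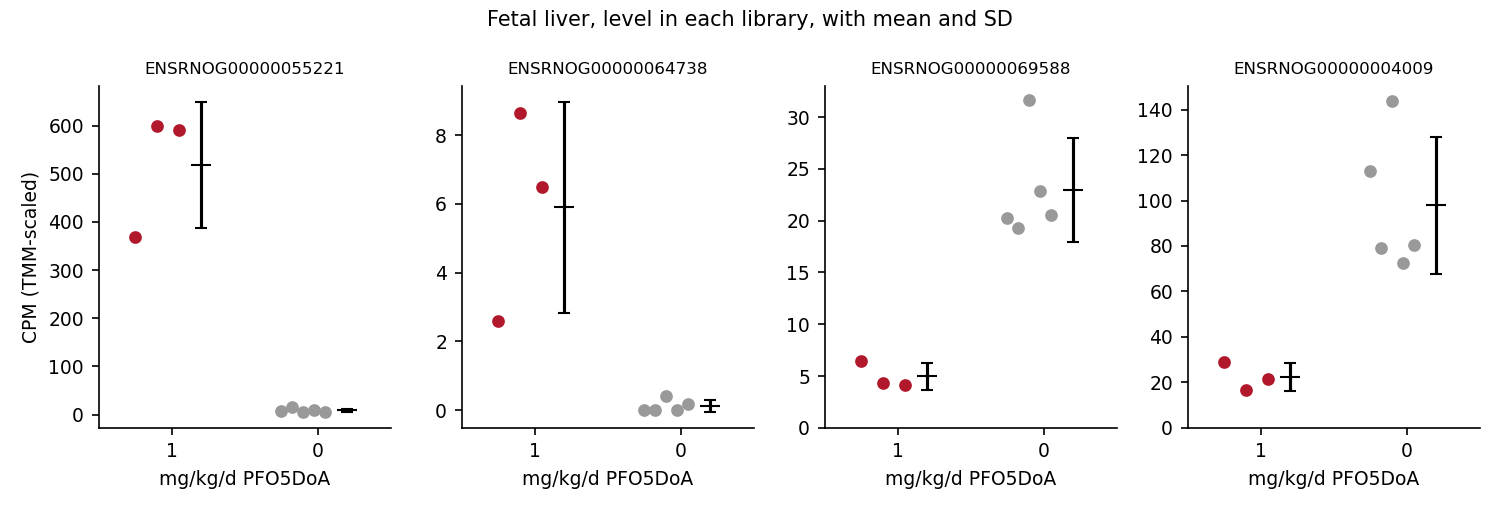
Level of 4 genes in each fetal liver library (vertical axes, TMM-scaled CPM from 0, a scale for each gene) at 1 mg/kg/d (left, 3 libraries) and 0 mg/kg/d (right, 5 libraries); bars are the mean and SD. In none of the 4 genes do the groups overlap, which was largely set by choosing them for their change in these same libraries.

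Among the dosed libraries the rises differed in size. For each library, the median over the 116 genes of the log2 difference from the control mean was 1.28 in dam 2271, 1.67 in dam 2272 and 1.83 in dam 2273, against -0.189 to 0.158 in the 5 controls. Dam 2271 was the lowest of the 3 in 98 of the 116 rises (84.5%), as it was in 32.1% of all genes tested. Dam 2273 was the highest in 72 of the rises (62.1%), against 30.8% of all genes. Over the 21 falls the same median was -1.14, -1.36 and -1.19 in dams 2271, 2272 and 2273, against -0.155 to 0.161 in the controls. The total of the dam 2271 library, 12427706 counts, lay between those of the other two. The count of called genes moved with single libraries: it was 62 without dam 2272, 58 without dam 2273 and 249 without the control of dam 2264. The number of falls was 7 without dam 2271, 3 without dam 2272, 2 without dam 2273, 11 without the control of dam 2263, 7 without that of dam 2265 and 82 without that of dam 2264, and the 21 genes followed below are those of the fit with all 8 libraries.

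The stand-apart controls were also left out. With only the lower run of dam numbers (3 dosed and 3 control libraries), 187 genes were called, 127 up and 60 down, and 120 of the 137 genes were among them (edgeR). All 116 rises and all 21 falls kept their sign there, in libraries that had also served to call them, and 102 and 18 of them were called. Without the dam 2278 library alone the count was 137, of which 121 genes were shared. With all 8 libraries thinned at random to 9694608 counts, a check added after the totals had been seen, 145 genes were called and 131 were shared.

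Some calls are uncertain as separate genes. Values that were not whole numbers occurred in 46 of the 116 rises (39.7%) and 7 of the 21 falls (33.3%), against 31.6% of all genes tested. Of the rises, 3 kept a fixed ratio to one another over the 54 fetal libraries (Pearson's r at least 0.999 in all 3 pairs), so they may share reads and count as 1 signal.

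In the maternal livers of the same dams fewer genes were called at 1 mg/kg/d: 12 of 9758 genes (0.123%; edgeR), all of them rises, and all 12 were among the 116 fetal rises. Of those 116, 104 could be tested in maternal liver. Their median maternal log2 fold change was 0.74, with 85 above 0 and 19 below, where the median of all genes was -0.04. In 51 of the 104 (49%) the dosed maternal libraries all lay above the controls, against 3.43% of all genes. Of the 21 falls, 17 were tested in maternal liver and 0 were called (edgeR; DESeq2 called 20 falls among all genes), with a median of -0.32. An unadjusted p under 0.05 was reached by 3 of the 17, against 695 of all 9758 genes. In 2 of the 17 (11.8%) the dosed maternal libraries all lay below the controls, against 3.05% of all genes. The maternal count ranged from 7 to 21 when a dam was left out (7 without dam 2272, 2273 or 2280, and 21 without dam 2263), and was 4 in the lower run of dam numbers.

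Per library, the 116 genes lay at a median of 0.648, 0.649 and 0.596 on the log2 scale above the control mean in the maternal livers of dams 2271, 2272 and 2273, against -0.182 to 0.0401 in control maternal livers. The dam with the weakest fetal rises, 2271, thus had a maternal value level with that of dam 2272. For the 12 genes called in both livers, the median log2 fold change was 2.83 in fetal liver (1.76 to 5.89) and 2.54 in maternal liver (1.58 to 5.46), and 8 of the 12 changed more in fetal liver.

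**Figure D2:**
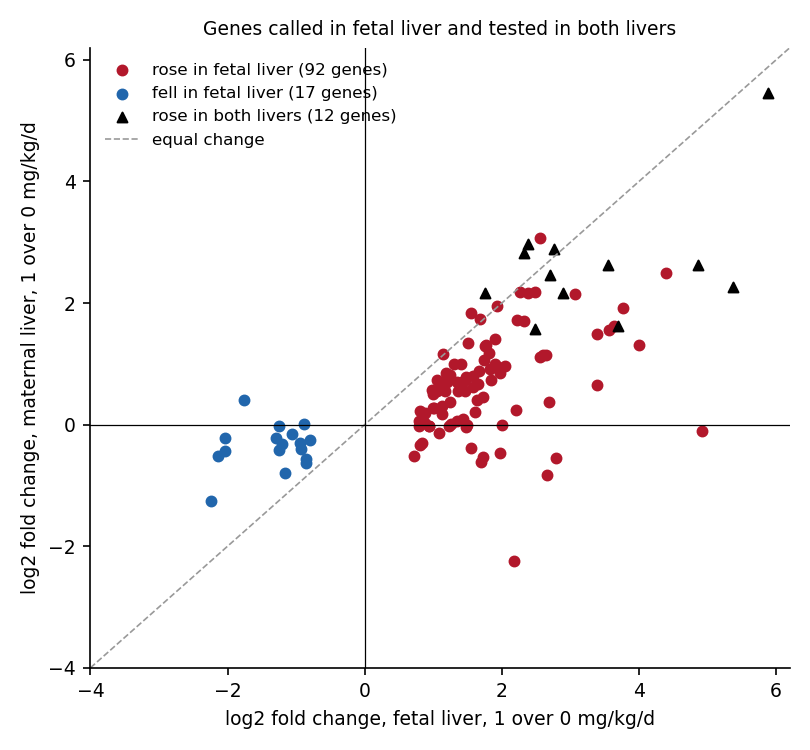
Log2 fold change at 1 over 0 mg/kg/d PFO5DoA in fetal liver (horizontal axis) and in maternal liver of the same dams (vertical axis) for the genes called in fetal liver and tested in both; the dashed line marks equal change. The 12 triangles are genes that rose in both livers; since the genes were called in these fetal libraries, their place on the horizontal axis was set by that choice.

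The difference between the livers was tested directly with the dam as a block. The fetal and the maternal response differed in 13 of 11287 genes (0.115%; edgeR adjusted p under 0.05), of which 9 (0.0797%) were higher and 4 (0.0354%) lower in fetal liver. Of the 13, 8 were fetal rises, 1 was a fetal fall and 4 were neither; the test shares the fetal libraries with the calls. This count was unstable: leaving out a dam gave 1 to 5 genes for 6 of the 8 dams, 27 without dam 2271 and 512 without dam 2264. An unadjusted p under 0.05 was reached by 1315 genes.

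The 4 genes differed in how far the maternal liver followed. ENSRNOG00000055221 had 26.8, 119 and 75.1 CPM in dosed maternal livers, against 0.981 to 2.03 CPM (median 1.77) in the 5 control maternal livers. Its maternal log2 fold change was 5.46 ± 0.43 (SE; edgeR adjusted p = 0.000248), and the fetal response exceeded it by 0.67 (95% interval -0.12 to 1.45, edgeR adjusted p = 0.51). The interval is wide, and a difference between the livers was not detected. ENSRNOG00000004009 had 20.4 ± 6.78 CPM at 1 mg/kg/d (SD, n = 3) and 28.9 ± 9.71 CPM at 0 mg/kg/d (SD, n = 5) in maternal liver, a log2 fold change of -0.51 ± 0.33 (SE; edgeR adjusted p = 0.752). The fetal change was lower than the maternal one by -1.64 (95% interval -2.55 to -0.72), which did not pass the adjusted threshold (edgeR adjusted p = 0.268). ENSRNOG00000064738 held 2 counts in the 3 dosed and 1 count in the 5 control maternal libraries. ENSRNOG00000069588 held 0 counts in both maternal groups, which allows up to 0.0792 CPM at 1 mg/kg/d and 0.058 CPM at 0 mg/kg/d (3 counts over the group, counting error only), so no maternal fold was computed.

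The dose of 1 mg/kg/d lay in the middle of a series that ran from 0.1 to 30 mg/kg/d in fetal liver. In a single fit over all fetal doses but 0.1, the 116 rises had a median log2 fold change of 0.74 at 0.3, 1.72 at 1, 2.11 at 3, 2.06 at 10 and 1.76 at 30 mg/kg/d. All these comparisons share the same 5 controls, and the genes were chosen at 1 mg/kg/d. The dams at 0.1, 0.3 and 1 mg/kg/d were all of the lower run and those at 30 mg/kg/d all of the upper run. Those at 3 and 10 mg/kg/d came from both, so dose and run cannot be fully told apart. Per library the medians over the 116 genes were 0.429 and 0.638 at 0.1 mg/kg/d, 0.332 to 0.824 at 0.3, 1.28 to 1.83 at 1, 1.71 to 2.12 at 3, 1.33 to 2.25 at 10 and 1.44 to 1.82 at 30 mg/kg/d. The 21 falls had a median log2 fold change of -0.19 at 0.3, -1.26 at 1, -1.30 at 3, -1.17 at 10 and -1.91 at 30 mg/kg/d. Of the 116 rises, 14 had a log2 fold change below 0 at 30 mg/kg/d and 4 of these fell (edgeR), where 16.1% of all genes fell.

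The contrast of 3 with 1 mg/kg/d uses no control level, although the controls entered the same fit. The dams at 3 mg/kg/d came from both runs of dam numbers and those at 1 mg/kg/d from the lower run alone. Fetal liver at 3 and at 1 mg/kg/d differed in 4 of 11509 genes (0.0348%; edgeR), 1 higher (0.00869%) and 3 lower (0.0261%) at the higher dose, and 823 genes reached an unadjusted p under 0.05. Leaving out a library gave 0 to 6 genes, and the count was 0 without dam 2272 or without replicate 1 or 2 at 3 mg/kg/d. Of the 116 rises, 1 was higher at 3 mg/kg/d and 89 had a difference above 0, with a median of 0.26 where that of all genes was 0.01. Of the 21 falls, 1 was lower and the median was -0.04.

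**Figure D3:**
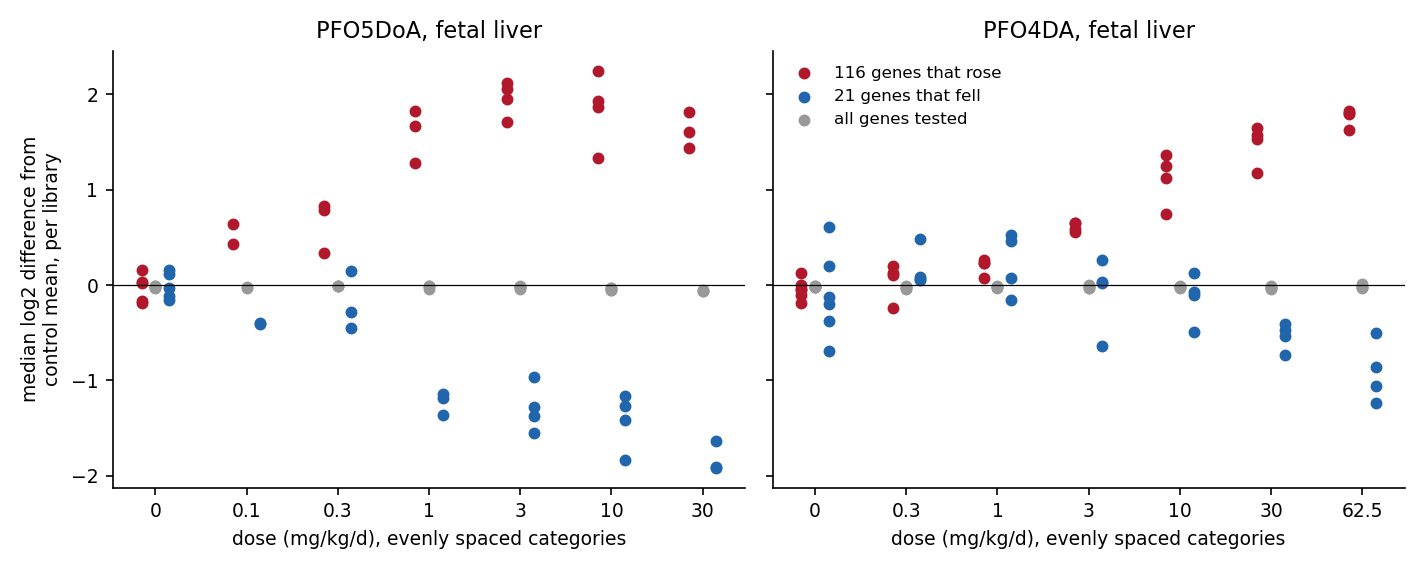
Median over genes of the log2 difference from the control mean (vertical axis), a point per fetal liver library, by dose of PFO5DoA (left) and PFO4DA (right) in mg/kg/d; genes are the 116 that rose, the 21 that fell and all tested. At 1 mg/kg/d the rises lie at 1.28 to 1.83 for PFO5DoA and at 0.0722 to 0.261 for PFO4DA.

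The 4 genes followed different dose courses in fetal liver. ENSRNOG00000055221 averaged 80.7 CPM at 0.1 (2 libraries), 80.8 at 0.3, 519 at 1, 750 at 3, 885 at 10 and 709 CPM at 30 mg/kg/d. Its log2 fold change at 0.3 mg/kg/d was 3.20 ± 0.32 (SE; edgeR adjusted p = 1.33e-05). The levels at 3 and 1 mg/kg/d differed by 0.53 on the log2 scale (95% interval -0.10 to 1.16, edgeR adjusted p = 0.725).

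ENSRNOG00000064738 had its highest mean at 1 mg/kg/d, the dose at which it was chosen for its rise. At 0.1 mg/kg/d it had 0 CPM in dam 2266 and 4.30 CPM in dam 2267. The latter lay above the lowest library at 1 mg/kg/d (2.59 CPM). Its mean at 0.3 mg/kg/d was 2.40 CPM, with 6.92 CPM in dam 2269 and at most 0.203 CPM in the other libraries. The gene then averaged 5.91 at 1, 3.51 at 3 and 0.915 CPM at 10 mg/kg/d. It had 0 counts in the 3 libraries at 30 mg/kg/d, which allows up to 0.0995 CPM. The levels at 3 and 1 mg/kg/d differed by -0.74 on the log2 scale (95% interval -2.76 to 1.27, edgeR adjusted p = 0.89).

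From 1 mg/kg/d up, the means of both falling genes were lower at each higher dose. ENSRNOG00000069588 averaged 14.2 CPM at 0.1 (2 libraries), 24.7 at 0.3, 4.99 at 1, 2.77 at 3, 0.214 at 10 and 0.0551 CPM at 30 mg/kg/d. ENSRNOG00000004009 averaged 58.1 CPM at 0.1 (2 libraries), 73.1 at 0.3, 22.4 at 1, 7.18 at 3, 2.01 at 10 and 0.927 CPM at 30 mg/kg/d. For ENSRNOG00000004009 the step from 1 to 3 mg/kg/d was -1.63 on the log2 scale (95% interval -2.25 to -1.01), short of the adjusted threshold (edgeR adjusted p = 0.0687), and for ENSRNOG00000069588 it was -0.83 (95% interval -1.75 to 0.09, edgeR adjusted p = 0.712). In maternal liver ENSRNOG00000004009 averaged 16.6 CPM at 3, 8.68 at 10 and 0.508 CPM at 30 mg/kg/d.

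**Figure D4:**
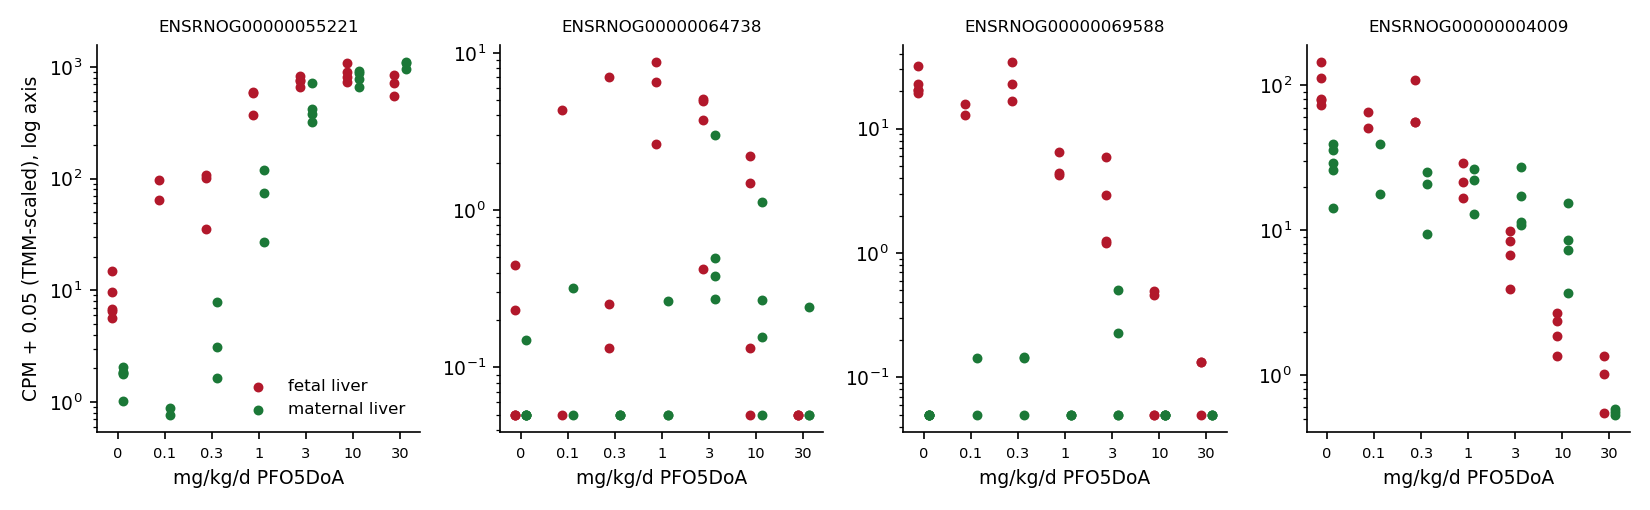
Level of 4 genes by PFO5DoA dose in mg/kg/d (horizontal axis, evenly spaced) in fetal and maternal liver, a point per library (vertical log axis, TMM-scaled CPM plus 0.05, so that libraries at 0 can be shown). In fetal liver the mean of ENSRNOG00000064738 is highest at 1 mg/kg/d, the dose at which it was chosen. The means of both falling genes are lowest at 30 mg/kg/d.

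At the matched dose of 1 mg/kg/d, PFO4DA left no called change in fetal liver. Of 11172 genes 0 were called (0%; edgeR), 876 reached an unadjusted p under 0.05, and DESeq2 called 5. The 4 dosed and 6 control libraries of PFO4DA were separate from those of PFO5DoA. The 116 genes raised by PFO5DoA had a median log2 fold change of 0.27 under PFO4DA, with 91 above 0, where that of all genes was 0.00. Of the 116, 30 reached an unadjusted p under 0.05 (edgeR). In 6 of the 116 (5.17%) the dosed PFO4DA libraries all lay above their controls, against 0.868% of all genes. The 21 lowered genes had a median of 0.25. Per library, their median log2 difference from the control mean was -0.158 to 0.528 at 1 mg/kg/d PFO4DA. In the PFO4DA controls it was -0.695 to 0.614.

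The 2 homologues formed the only pair compared, at a single matched dose. The fetal response to PFO5DoA differed from that to PFO4DA in 40 of 11247 genes (0.356%; edgeR adjusted p under 0.05), of which 39 (0.347%) were higher and 1 (0.00889%) lower with PFO5DoA. Of the 40, 37 were among the 116 rises and 0 among the 21 falls, and the test shares the PFO5DoA libraries with those calls. The median difference over the 40 genes, which were chosen for that difference, was 2.21 on the log2 scale. The count was 64 without dam 2271, 19 without dam 2272, 15 without dam 2273 and 85 without the PFO4DA control of dam 2295.

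ENSRNOG00000055221 had 9.02 ± 4.82 CPM at 1 mg/kg/d PFO4DA (SD, n = 4) and 12.8 ± 21.5 CPM in the PFO4DA controls (SD, n = 6), whose range was 2.07 to 56.5 CPM. Its response to PFO5DoA exceeded that to PFO4DA by 6.38 on the log2 scale (95% interval 3.98 to 8.77, edgeR adjusted p = 0.0306). That call was not stable. The PFO4DA control of dam 2293 had 56.5 CPM and the other 5 had 2.07 to 6.30 CPM, and without dam 2293 the difference was 4.75 (edgeR adjusted p = 0.00029). Over 18 fits that each left out 1 library, a choice made after seeing the data, the difference ranged from 4.75 to 6.79 and the edgeR adjusted p from 0.00029 to 0.104, and in 9 of the fits the gene was not called. For the other three genes the difference did not pass the threshold: it was 4.64 for ENSRNOG00000064738 (95% interval 1.66 to 7.62, edgeR adjusted p = 0.214), -2.63 for ENSRNOG00000069588 (95% interval -4.09 to -1.18, edgeR adjusted p = 0.151) and -2.30 for ENSRNOG00000004009 (95% interval -3.46 to -1.14, edgeR adjusted p = 0.109). Leaving out 1 library brought ENSRNOG00000069588 past the threshold in 1 fit (dam 2295, a PFO4DA control, -3.16, edgeR adjusted p = 0.0218) and ENSRNOG00000004009 in 1 fit (dam 2294, a PFO4DA control, -2.64, edgeR adjusted p = 0.0267).

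At higher doses of PFO4DA more of the 116 genes rose. In its own fit PFO4DA raised 28 of the 116 at 3 mg/kg/d (0.295% of all genes rose), 82 at 10 (1.95%), 102 at 30 (3.28%) and 103 at 62.5 mg/kg/d (4.71%; edgeR). Those made up 84.8%, 37.6%, 27.9% and 19.6% of the genes PFO4DA raised at the 4 doses. Their median log2 fold changes were 0.65, 1.19, 1.61 and 1.84 in the same order. Of the 21 genes lowered by PFO5DoA, PFO4DA lowered 4 at 10 mg/kg/d (0.689% of all genes fell), 7 at 30 (3.16%) and 11 at 62.5 mg/kg/d (5.93%). ENSRNOG00000055221 averaged 102 CPM at 3, 315 at 10, 598 at 30 and 690 CPM at 62.5 mg/kg/d PFO4DA, beside 519 CPM at 1 mg/kg/d PFO5DoA; these doses differ and were not compared.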

How the data were processed

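RNA of maternal and fetal liver was assayed with TempO-Seq, in which probe pairs ligated on each RNA are sequenced and counted. The panel holds 22253 probes for 20924 genes, per the labels' protocols. The authors deposited a table of estimated counts per gene and library for each chemical, with no normalization, and per the submitters' processing notes Partek, STAR 2.7.8a, DESeq2 and the build mRatBN7.2 were used. The notes do not say which tool made the tables. Of the PFO5DoA values, 12.2% had decimals, and the estimated counts were rounded here.

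Dose came from the labels through the dam number, and life stage from the rule described in the results. Dam 2279 was left out, as its fetal library held 45505 counts, and dam 2286 has no fetal library. Genes were tested with edgeR 4.0.16 in R 4.3.3 (filterByExpr, TMM, robust glmQLFit, glmQLFTest) and Benjamini-Hochberg adjustment over all genes tested, at 0.05. Intervals are 1.96 standard errors either way. Levels are CPM of TMM-scaled totals within a life stage; medians per library used log2(CPM + 0.5). The filter asked for 3 libraries at the minimum level. Dams are separate animals. Every pair of libraries within a group differed by more than sampling noise (chi-square per degree of freedom at least 26.9), so all were kept as separate libraries. Each fit was checked on simulated counts with known changes.

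The members, lists and tests were chosen with earlier results of these data known. Gene and marker lists (20 and 16) and genes chosen by symbol could not be used, because no ID was paired with a symbol. The genes named were the largest rises and falls by log2 fold change among called genes whose mean reached 5 CPM in either group and whose dosed libraries all lay on 1 side of the mean of the controls, which 106 rises and 18 falls met. Only 2 in each direction are printed, as IDs without names. Alternatives were DESeq2 1.42.0, limma 3.58.1, RLE scaling, no filter, other sets of libraries, a replicate block and a minimum fold.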

Additional observations from a re-analysis of the deposited data

Results flagged for a closer look

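The fetal and maternal responses to 1 mg/kg/d PFO5DoA differed in 13 genes by the test of the difference itself (edgeR, dam as a block), 9 higher and 4 lower in fetal liver. The median difference was 1.95 on the log2 scale, and the median log2 fold change of the 13 genes was 1.85 in fetal and -0.01 in maternal liver. These medians pool both directions. The 13 genes were chosen for their difference in these same libraries, so the medians were largely set by that choice.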

How the results depend on the processing

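In fetal liver at 1 against 0 mg/kg/d, the 4 named genes kept their direction and their call in every alternative run for that comparison. They had been chosen for large changes in these same libraries, and the alternatives reused those libraries or a part of them. That they kept their calls was thus largely set by the choice. For the 137 genes called in fetal liver, DESeq2 called 449 (265 up, 184 down, all 137 among them), the fit over all fetal doses 276 and a tested minimum fold of 1.5 gave 62. Leaving out each library gave 58 to 249. The other settings stayed within 1.5 times of 137, and RLE scaling changed no count. For the difference between fetal and maternal response (13 genes), DESeq2 gave 51, no filter 399, no dam block 5 and the lower dam numbers 4, and leaving out each dam gave 1 to 512. For 3 minus 1 mg/kg/d (4 genes), DESeq2 gave 33, and leaving out each library of those doses 0 to 6. For PFO5DoA minus PFO4DA (40 genes), DESeq2 gave 180, and leaving out each dosed or control library 15 to 85, the controls being added after seeing the data. For maternal liver (12 genes), alternatives added after seeing the data gave 76 with DESeq2, 22 with no filter, 4 with the lower dam numbers and 7 to 21 without each dam. For PFO4DA at 1 mg/kg/d (0 genes), DESeq2, also added later, gave 5. The cause of these moves was not tested. With the replicate block the fetal count was 128 (94 up, 34 down, 91 shared). The deviations of dosed and control libraries of the same number correlated at r -0.124, 0.0223 and -0.0764 for numbers 1, 2 and 3. Pairs of unlike numbers had r from -0.0853 to 0.116. With a single pair per number these values cannot decide whether the numbers share more than a name. Keeping dam 2279 was not run, since its fetal library is the one of very low total, and the list counts were not run for want of gene names.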
